A study of Homo sapiens with 40 samples.

Results

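The response of NCIH522, a human lung adenocarcinoma cell line, to GSK3368712 was described across all genes that the authors' deposited table listed with values for this line. GSK3368712 (GSK712 in the labels) is an inhibitor of type I protein arginine methyltransferases. The groups were NCIH522 cells treated with GSK712, as replicates N1 and N2, and NCIH522 cells treated with DMSO, the vehicle, also as N1 and N2. All 4 libraries carry the label D5 in their titles, and the comparison also carries the number 2000, and the labels explain neither. The members were the table's rows whose name holds NCIH522, and 12937 genes had values, of 19280 with values in any of the 10 non-small cell lung cancer lines of the series. The series holds 40 libraries, 2 with GSK712 and 2 with DMSO for each line, of which 4 lines are labelled LUAD (adenocarcinoma) and 6 LUSC (squamous cell carcinoma). The labels do not say whether 2 libraries of a group came from separate cultures, so the p-values measure the spread between libraries, which may be technical.

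Type I arginine methyltransferases place asymmetric dimethyl marks on arginine residues. PRMT1 does most of this work in human cells, and its substrates include histone H4 and many RNA-binding proteins with arginine- and glycine-rich stretches that act in splicing, export and translation. Blocking these enzymes is known to alter how introns are removed and retained, and it is studied as a treatment for tumours.

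Each fold change, standard error (SE), adjusted p and mean normalized count given below for a single gene and line is a value of the authors' deposited table, from their DESeq2 comparison of GSK712 with DMSO. A positive log2 fold change means higher with GSK712, a direction that rests on GSK712 standing before DMSO in the table's row label. The table holds no values of single libraries, so each gene's mean in the 2 arms is given as implied by its mean normalized count over 4 libraries and its fold change, and overlap between libraries could not be examined. The stated depth was 100000000 paired-end reads of 151 bases per library, and the mean normalized counts of NCIH522 summed to 93953502. The median SE of a log2 fold change was 0.26 and the lowest was 0.19. In bulk RNA, a change in the mix of cells and a change in RNA per cell cannot be told apart.

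The line was checked against marker lists, where a gene without values did not reach the expression minimum stated in the labels or is not analysed here. Of 18 epithelial markers 8 had values, among them EPCAM, KRT18 and KRT8. Of 18 lung adenocarcinoma markers 3 had values, namely FOXA1, LPCAT1 and ABCA3, and neither NKX2-1 nor NAPSA, the defining pair, was listed. The neuroendocrine markers CHGA, CHGB, SYP and DLL3 were among 7 of 20 with values, and UCHL1 stood at percentile 99.2 of all listed genes per transcript length. Of 18 squamous markers 4 had values, with SOX2 at percentile 91.0 and without TP63 or KRT5, and of 15 blood and endothelial markers 2 had values. Of 22 mesenchymal markers 8 had values, among them VIM, a mesenchymal filament, which stood at percentile 96.0. None of these marker genes passed the test between GSK712 and DMSO, and their part in the results below was not tested.

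In NCIH522 cells, GSK712 moved few genes past the threshold, and most of these were expressed below the line's median level. At an adjusted p of at most 0.05 in the authors' deposited table, 215 of 12937 genes were called (1.66%). Of these, 118 were higher with GSK712 (0.912%) and 97 were lower (0.75%). At an unadjusted p under 0.05 there were 1245 genes (9.62%), the share against which such counts are given for gene lists below. The called genes had a median log2 fold change of 1.17 where higher and of -1.19 where lower, and the smallest sizes called were 0.71 and 0.69. At least a doubling or a halving was seen for 71 higher and 66 lower genes, and these 137 (1.06%) are the genes the authors marked. Only 54 called genes had a mean normalized count at or above the median of 2079, and 161 lay below it. With genes divided into 4 equal bins by mean count, 2.32% were called in the lowest bin, 2.66% in the second, 1.45% in the third and 0.22% in the highest.

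**Figure D1:**
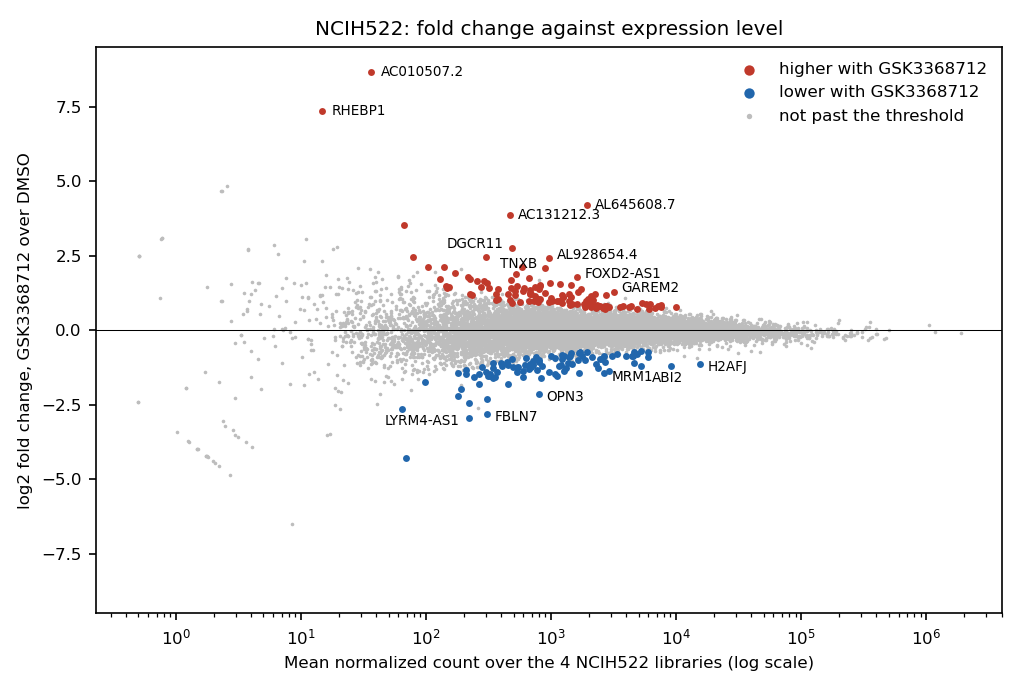
Log2 fold change of GSK712 over DMSO (y axis) against the mean normalized count of the 4 NCIH522 libraries (x axis, log scale), 1 point per gene for 12937 genes. Red points are the 118 genes called higher and blue points the 97 called lower, and grey points did not pass an adjusted p of 0.05. Most coloured points lie below the median count of 2079, and the tallest pair, AC010507.2 and RHEBP1, has means of 36.5 and 14.7.

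The genes that rose most among those at or above the median level included an adaptor, a channel and lipid enzymes. In the authors' deposited table GAREM2, an adaptor of growth factor receptor signalling, had the largest log2 fold change of this kind, 1.28 ± 0.22 (SE), with an adjusted p of 2.50e-06 (DESeq2). Its implied mean normalized counts were 4506 in GSK712 libraries and 1859 in DMSO libraries. ASIC1, a proton-gated sodium channel, followed with a log2 fold change of 1.20 ± 0.23 and implied means of 3094 with GSK712 and 1349 with DMSO. NRBP2, a pseudokinase, rose by 1.19 ± 0.21 on the log2 scale, with implied means of 3794 with GSK712 and 1661 with DMSO. SYNJ2, an inositol phosphatase of membrane traffic, rose by 1.14 ± 0.24, and CERS1, a ceramide synthase that shares its locus and strand with GDF1, rose by 1.00 ± 0.23. These genes were a little over 2-fold higher with GSK712, with folds of 2.42 for GAREM2, 2.29 for ASIC1, 2.28 for NRBP2, 2.20 for SYNJ2 and 2.00 for CERS1.

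Further genes of this level that rose were smaller in size in the authors' deposited table. The deubiquitinase USP4 had a log2 fold change of 0.91 and the Rab regulator DENND1A one of 0.86. The endosomal GTPase RAB15 and ADAM11, a metalloprotease-like surface protein of neurons, were both at 0.86. The matrix and adhesion genes COL6A2 (a collagen VI chain) and ITGA3 (an integrin chain) had log2 fold changes of 0.83 and 0.83. CHCHD6, which helps shape the inner mitochondrial membrane, was at 0.82, as was the snoRNA host SNHG7. DBNDD1 at 0.85 and SCRN2 at 0.81 completed the 15.

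Larger changes were found among higher genes below the median level. The authors' deposited table gave FOXD2-AS1, a long non-coding RNA divergent from FOXD2, a log2 fold change of 1.78 ± 0.22 with an adjusted p of 3.39e-12 (DESeq2), and its implied means were 2514 with GSK712 and 731 with DMSO. TNXB, which encodes the matrix protein tenascin-X, rose by 2.08 ± 0.29 with an adjusted p of 1.33e-09, with implied means of 1434 with GSK712 and 338 with DMSO. BRAF, the kinase upstream of MEK, chosen after its values were seen, rose by 1.59 ± 0.27 with an adjusted p of 1.65e-06, and its implied means were 1476 with GSK712 and 491 with DMSO. MACROD1, a mitochondrial enzyme that removes ADP-ribose, rose by 1.51 ± 0.25, and FBXL2, an F-box protein of ubiquitin ligases, rose by 1.51 ± 0.24. UNC13D, which acts in granule release and was chosen in the same way, rose by 1.92 ± 0.44 from a mean count of 170. HLA-DOB, a regulator of MHC class II peptide loading, rose by 2.47 ± 0.56 at a mean count of 78.6. TNXB shares its end with near-identical sequence elsewhere in the same locus, so its reads are uncertain.

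Several higher calls rested on very few reads. RHEBP1, a pseudogene, had a log2 fold change of 7.35 ± 1.94 and a mean normalized count of only 14.7 in the authors' deposited table. AC010507.2, a pseudogene on chromosome 19 singled out after its values were seen, had 8.66 ± 1.70 at a mean of 36.5. Both had an implied DMSO mean of 0.18, so the sizes of these fold changes carry no meaning beyond detection with GSK712.

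**Figure D2:**
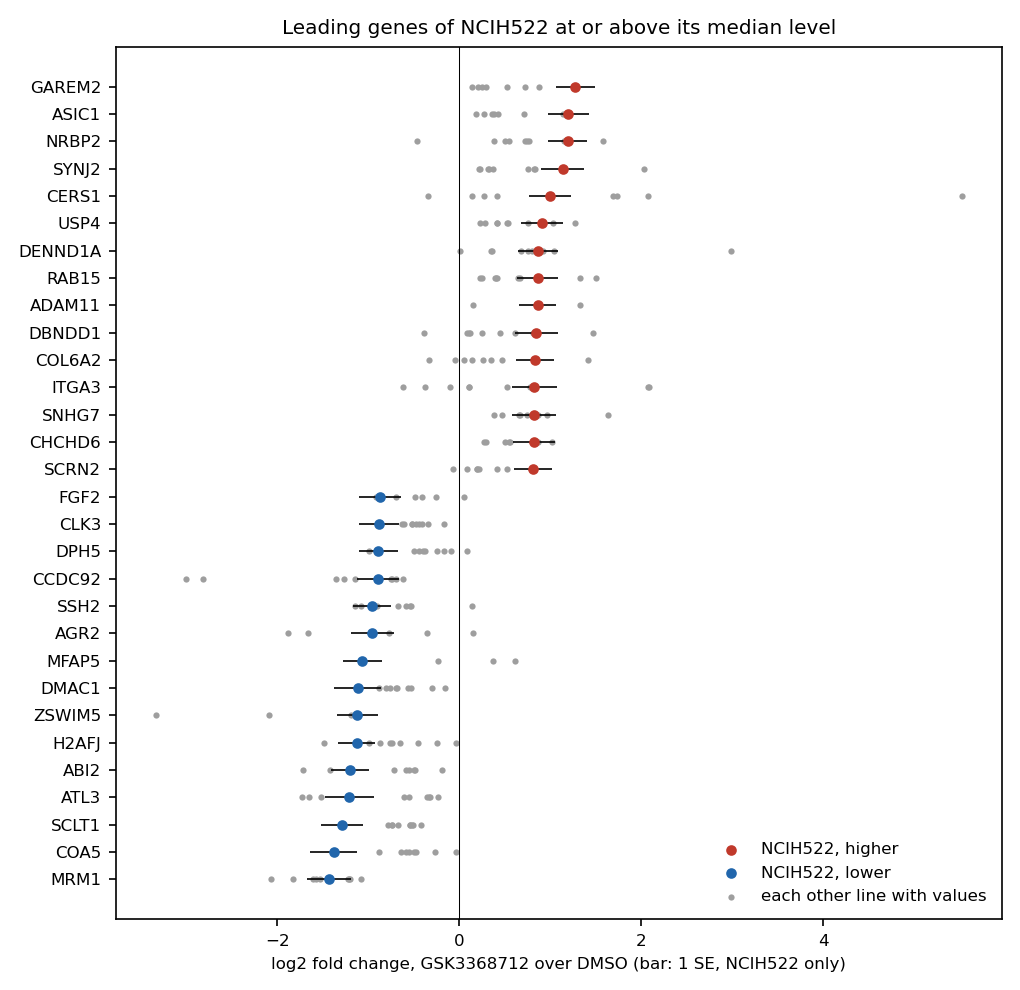
Log2 fold change of GSK712 over DMSO (x axis) for the 15 largest called genes of each direction at or above the median level of NCIH522 (rows). Large points with a bar of 1 SE are NCIH522, red where higher and blue where lower, and small grey points are each other line with values. GAREM2 in NCIH522, at 1.28, lies beyond the 7 other lines with values, whose highest is 0.88, while MRM1 at -1.43 lies within the range of the other lines.

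Among genes that fell, enzymes and assembly factors of mitochondria stood beside genes of the cytoskeleton, centrosome and endoplasmic reticulum. Calls among mitochondrial genes went both ways, since MACROD1 (1.51), CPT1B (1.39), CHCHD6 (0.82) and FDXR (0.81) were called higher. MRM1, which methylates mitochondrial ribosomal RNA, fell by 1.43 ± 0.24 on the log2 scale in the authors' deposited table, with an adjusted p of 1.79e-06 (DESeq2). Its implied mean normalized counts were 1423 in GSK712 libraries and 3837 in DMSO libraries. COA5, an assembly factor of cytochrome c oxidase, fell by 1.38 ± 0.26, with implied means of 1596 with GSK712 and 4157 with DMSO. DMAC1, an assembly factor of respiratory complex I, fell by 1.12 ± 0.26, to 2908 with GSK712 against 6308 with DMSO. AFG1L, a mitochondrial ATPase, fell by 1.81 ± 0.34 at a mean count of 262, and TST, the mitochondrial thiosulfate sulfurtransferase, fell by 0.99 ± 0.26. FMC1, known in yeast as an assembly factor of ATP synthase, fell by 0.73 ± 0.22, and it overlaps the LUC7L2 locus on the same strand.

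The mitochondrial lists held single calls, beside 0.75% of all genes called lower, and 1 call is too few to read as a change of a list. These lists were chosen with earlier results of these data known. MRM1 and TST were among 8 genes that earlier results had shown to fall in every line, so their shares are no independent evidence. Complex IV and its assembly factors had 1 of 34 members called (COA5, 2.94%), and the list's median log2 fold change was -0.11. Mitochondrial RNA modification and processing had 1 of 28 (MRM1, 3.57%), with a median of -0.04, and sulfur metabolism had 1 of 8 (TST, 12.5%), with a median of -0.17. No gene was called by DESeq2 among 79 nuclear genes of oxidative phosphorylation, 13 mitochondrial genes or 78 mitochondrial ribosomal proteins, of which 1, 0 and 7 had an unadjusted p under 0.05, beside 9.62% of all genes. The median over all listed genes was -0.01.

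Cytoskeletal and membrane genes that fell were led by SCLT1, a protein of the distal appendages of centrioles, with a log2 fold change of -1.29 ± 0.23 and an adjusted p of 1.87e-05 (DESeq2, authors' deposited table). ABI2, a subunit of the actin-nucleating WAVE complex, fell by 1.20 ± 0.21, and its implied means were 5480 with GSK712 and 12590 with DMSO. ATL3, a GTPase that shapes endoplasmic reticulum, fell by 1.21 ± 0.27, to 3182 with GSK712 against 7341 with DMSO. SSH2, a phosphatase of cofilin, fell by 0.95 ± 0.21, as did AGR2, a disulfide isomerase of the secretory pathway (0.95 ± 0.24). MFAP5, a protein of matrix microfibrils, fell by 1.07 ± 0.21. TMEM107, a protein of the ciliary transition zone, fell by 1.81 ± 0.29, and it overlaps the snoRNA gene SNORD118 on the same strand. CCDC92 fell by 0.89, ZSWIM5 fell by 1.12, and DPH5, an enzyme that modifies a histidine of elongation factor EEF2, fell by 0.89.

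The strongest call among lower genes was FBLN7, a fibulin of the extracellular matrix, with a log2 fold change of -2.83 ± 0.34 and an adjusted p of 2.56e-13 (DESeq2, authors' deposited table). Its implied means were 76.1 with GSK712 and 539 with DMSO, and 1 other line listed it, with -1.96. OPN3, an opsin, fell by 2.14 ± 0.29 with an adjusted p of 5.23e-10, to 296 with GSK712 against 1304 with DMSO. LYRM4-AS1, chosen after its values were seen, fell by 2.95 ± 0.42, and LINC01569 fell by 1.62 ± 0.25, both long non-coding RNAs. TSPEAR-AS2 fell by 2.22 ± 0.43 at a mean count of 179. SLC2A11, a hexose transporter, fell by 1.53 ± 0.24 with an adjusted p of 9.13e-08.

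Several single-exon non-coding transcripts rose more than any gene at or above the median level, and for those that lie inside a coding gene, the coding gene did not pass the test. The strongest call of the line was AL645608.7 (ENSG00000272512), a single-exon long non-coding gene at chr1:995966-998051 on the minus strand (GRCh38, GENCODE 29), which has no symbol in the table and was singled out after its values were seen. The authors' deposited table gave it a log2 fold change of 4.19 ± 0.23 and an adjusted p of 2.06e-67 (DESeq2), and its implied means were 3685 with GSK712 and 203 with DMSO, an 18.2-fold difference. AC131212.3 (ENSG00000280287), chosen in the same way, lies at chr12:132550729-132554947 inside FBRSL1 on the same strand. It rose by 3.88 ± 0.34, to 881 with GSK712 against 59.8 with DMSO, while FBRSL1 had a log2 fold change of 0.13 ± 0.24 and an adjusted p of 0.998. AL928654.4 (ENSG00000279495), also chosen after its values were seen, lies at chr14:105370418-105372918 inside PACS2. It rose by 2.42 ± 0.26, to 1621 with GSK712 against 304 with DMSO, while PACS2 had 0.13 ± 0.21 and an adjusted p of 0.998. DGCR11 (ENSG00000273311) lies at chr22:19046162-19048375 inside DGCR2 and rose by 2.74 ± 0.32, to 853 with GSK712 against 127 with DMSO, while DGCR2 had 0.29 ± 0.25 and an adjusted p of 0.909. The submitters' notes name Salmon 0.12.0 for quantification. How reads shared between such a transcript and its host gene were divided cannot be seen here, so the values of the inner transcripts are uncertain.

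By annotation class, a larger share of long non-coding than of coding genes was called. Of the long non-coding genes in the authors' deposited table, 47 of 1122 were called (4.19%, 27 higher and 20 lower), beside 157 of 11201 protein-coding genes (1.40%, 84 higher and 73 lower). Of the long non-coding genes that rose, 18 of 27 had a single exon, against 2 of 20 that fell and 374 of 1122 listed. Among protein-coding genes the median GC content of the longest transcript was 58.4% for genes that rose and 46.0% for those that fell, beside 49.1% for all listed. These properties were chosen after the calls were known, and their part in the results was not tested.

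Among hosts of small nucleolar RNAs, 5 rose and none fell. These genes carry snoRNAs in their introns, which guide chemical changes of ribosomal RNA, and their spliced transcripts are usually short-lived. Of 20 listed hosts, 5 were called higher and none lower (25.0%, against 0.912% of all genes called higher). Among long non-coding genes, 27 of 1122 were called higher. Of the hosts, 16 of 20 had a log2 fold change above 0. This list was chosen with earlier results of these data known, so its share of calls is no independent evidence and was not tested. The median over the 20 was 0.43, and 9 of the 20 had an unadjusted p under 0.05, beside 9.62% of all genes. SNHG19 rose by 1.47 ± 0.27 with an adjusted p of 2.44e-05 (DESeq2, authors' deposited table), and its implied means were 1189 with GSK712 and 430 with DMSO. SNHG10 rose by 1.10 ± 0.24 (adjusted p of 0.00119), to 1705 with GSK712 against 794 with DMSO. SNHG25 rose by 1.70 ± 0.44 (adjusted p of 0.0118) at a low level, 197 with GSK712 against 60.5 with DMSO. SNHG7 rose by 0.82 ± 0.25 (adjusted p of 0.0485), to 2985 with GSK712 against 1687 with DMSO. SNHG3 rose by 0.77 ± 0.21 (adjusted p of 0.0267), to 4477 with GSK712 against 2635 with DMSO, and it overlaps RCC1, which had a log2 fold change of 0.04 ± 0.22. Hosts that did not pass included DANCR at 0.62 ± 0.24 (adjusted p of 0.212), SNHG8 at 0.50 (called higher in all 9 other lines), SNHG5 at 0.45, GAS5 at 0.14 and ZFAS1 at -0.19. Most hosts overlap the small RNA genes they carry, and several overlap a coding gene.

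The start regions of hosts are shown because many genes of this kind begin with a pyrimidine run, the feature of terminal oligopyrimidine transcripts, and because members called and not called can then be read side by side. RefSeq promoter sequences (GRCh38.p14) were matched for 16 of 20 hosts, and SNHG25 was not among them. A run was counted where a C followed by at least 4 pyrimidines began within 5 bases of the annotated start, and TATAAA was searched on the transcribed strand from 40 to 15 bases before it, and these motifs do not overlap. Of 27305 promoters in the RefSeq table, 21.1% held the run and 2.54% held TATAAA. The run was found in 2 of 4 matched hosts called higher (SNHG19 and SNHG7) and in 8 of 12 not called. TATAAA was found in SNHG19 and SNHG7 alone among the 16. A close variant, TATATAA, was searched in the same stretch after the sequences were seen, and SNHG5, ZFAS1 and SNHG12, none of them called, held it, as did 0.66% of all promoters. With 4 called hosts matched, no comparison between called and uncalled hosts was tested. Each sequence below spans 100 bases, 50 on either side of the start, with the run and TATAAA in capitals and base 51 as the start. The windows are chr16:2155309-2155408 (minus strand) for SNHG19, chr9:136728135-136728234 (minus) for SNHG7, chr14:95534823-95534922 (minus) for SNHG10, chr1:28505893-28505992 (plus) for SNHG3, chr6:85678684-85678783 (minus) for SNHG5 and chr20:49278592-49278691 (plus) for ZFAS1.
SNHG19: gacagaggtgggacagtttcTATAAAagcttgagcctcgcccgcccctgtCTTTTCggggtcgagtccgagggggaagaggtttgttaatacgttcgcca
SNHG7: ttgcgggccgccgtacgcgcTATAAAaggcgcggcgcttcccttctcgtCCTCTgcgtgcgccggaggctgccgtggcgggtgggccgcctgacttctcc
SNHG10: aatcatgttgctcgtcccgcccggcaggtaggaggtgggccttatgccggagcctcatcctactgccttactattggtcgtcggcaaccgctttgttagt
SNHG3: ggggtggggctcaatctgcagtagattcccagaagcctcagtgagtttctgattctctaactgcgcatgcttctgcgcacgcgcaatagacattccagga
SNHG5: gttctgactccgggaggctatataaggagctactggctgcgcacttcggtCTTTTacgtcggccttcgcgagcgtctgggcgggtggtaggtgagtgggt
ZFAS1: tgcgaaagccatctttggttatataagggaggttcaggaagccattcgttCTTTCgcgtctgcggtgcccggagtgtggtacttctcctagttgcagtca

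Genes of cytosolic ribosomal proteins gave no call. Of 82 listed, none was called by DESeq2, beside 1.66% of all genes and 0.22% of genes in the highest bin by mean count. At such shares, no call in a list of this size is not read as a result about the list. An unadjusted p under 0.05 was found for 0 of 82, beside 9.62% of all genes. In this list 75 were below 0 and 7 above, and log2 fold changes ran between -0.39 and 0.33 with a median of -0.14 (authors' deposited table).

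Calls were found among histones, DNA methyltransferases and repair enzymes. H2AFJ, a replication-independent histone H2A variant, fell by 1.13 ± 0.20 with an adjusted p of 1.69e-05 (DESeq2, authors' deposited table), and its implied means were 9667 with GSK712 and 21113 with DMSO. The histone genes HIST1H4H (-1.17 ± 0.33) and HIST1H3H (-0.94 ± 0.27) also fell, so that 3 of 38 listed histone genes were called lower and none higher, beside 0.75% of all genes called lower. The median of the histone list was -0.22, with 27 of 38 below 0 and values between -1.826 and 1.015. An unadjusted p under 0.05 was found for 14 of 38, beside 9.62% of all genes. Replication-dependent histone RNAs mostly lack a poly(A) tail, which the poly(A)-selecting library kit needs. DNMT3B, a DNA methyltransferase that sets new methylation, rose by 0.77 ± 0.21, to 3647 with GSK712 against 2143 with DMSO. DNMT1, which copies methylation at replication, had -0.28 ± 0.24 and an adjusted p of 0.894. MGMT, which removes alkyl groups from guanine, fell by 1.27 ± 0.25, and ATM, the kinase that signals DNA breaks, fell by 1.00 ± 0.28. MGMT and ATM were chosen after their values were seen. No gene was called by DESeq2 among 28 of homologous recombination and the Fanconi pathway, 40 of DNA replication or 37 of mitosis. Of these, 1, 0 and 0 had an unadjusted p under 0.05, beside 9.62% of all genes. Beside 1.66% of all genes called, the absence of calls in lists of this size is not read as a result about them.

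Among signalling genes, JUN, DUSP8, FGF2 and PRKACB fell. JUN, a subunit of the AP-1 transcription factor, fell by 1.10 ± 0.23 with an adjusted p of 4.47e-04 (DESeq2, authors' deposited table), to 868 with GSK712 against 1863 with DMSO. DUSP8, a phosphatase of stress-activated MAP kinases, fell by 1.96 ± 0.40 at a mean count of 190, and FGF2, a growth factor, fell by 0.87 ± 0.23. PRKACB, which encodes a catalytic chain of protein kinase A, fell by 1.55 ± 0.37 (adjusted p of 0.00361), the 1 call among 18 genes of adenylyl cyclases and protein kinase A (5.56%, beside 0.75% of all genes called lower), of which 6 had an unadjusted p under 0.05. None of 15 MAPK feedback genes or 14 receptor tyrosine kinases was called by DESeq2, and 0 and 1 had an unadjusted p under 0.05. With 1.66% of all genes called, the absence of calls in such short lists is not read as a result. PER3, a clock gene chosen after its values were seen, rose by 1.37 ± 0.32, to 2484 with GSK712 against 962 with DMSO.

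ASIC1 was the 1 called member of 15 listed neuronal channel and synapse genes (6.67%, beside 0.912% of all genes called higher), of which 13 were above 0 and 5 had an unadjusted p under 0.05, and the list's median log2 fold change was 0.33. Among members that did not pass, KCNH2 had 0.92 ± 0.31 (adjusted p of 0.102), SCN8A had 1.10 ± 0.44 and ASIC3 had -1.10 ± 0.47 (authors' deposited table). Of 178 solute carriers 5 were called higher and 1 lower (3.37%, against 1.66% of all genes), with a median of 0.05. The 5 were SLC9A5 (a sodium-proton exchanger, 1.45), SLC30A3 (a vesicular zinc transporter, 1.32), SLC4A3 (an anion exchanger, 1.16), SLC17A7 (the vesicular glutamate transporter VGLUT1, 0.97) and SLC26A11 (an anion transporter, 0.78). Genes known from neurons that were picked because they rose, and so show no direction of a group, were NECAB2 (1.65), KCNIP3 (1.65), UCN (1.48), PSPN (1.03), NFASC (1.00) and ICAM5 (0.94). NRTN, a neurotrophic factor, rose by 1.18 ± 0.35, and KIF5A, a neuronal kinesin, rose by 0.89 ± 0.26.

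Among genes of checkpoint ligands, the interferon response and MHC class I, VSIR alone was called. VSIR, which encodes the checkpoint ligand VISTA, rose by 1.40 ± 0.38 with an adjusted p of 0.0229 (DESeq2, authors' deposited table), to 462 with GSK712 against 175 with DMSO, and it was the 1 call among 11 checkpoint and natural killer cell ligand genes (9.09%, beside 0.912% of all genes called higher). It overlaps CDH23 on the opposite strand, which had 1.17 ± 0.37 and an adjusted p of 0.0783. None of 23 interferon response genes was called by DESeq2, 3 had an unadjusted p under 0.05, and their median was 0.08, with HERC6 at 0.89 ± 0.34 (adjusted p of 0.202) and ISG15 at -0.51 ± 0.22 (adjusted p of 0.352). None of 18 MHC class I and peptide loading genes was called, 3 had an unadjusted p under 0.05, with a median of 0.04, and B2M was at -0.04 ± 0.20. Since 1.66% of all genes were called, the absence of calls in these 2 lists is not read as a result about them. CD274, which encodes PD-L1, had no values in NCIH522. Outside the lists and chosen after their values were seen, IRAK4, a kinase of Toll-like receptor signalling, fell by 1.15 ± 0.32, and IFI27L1, a gene related to the interferon-induced IFI27, rose by 0.71 ± 0.21.

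The enzymes that GSK712 inhibits did not pass the test at the RNA level. PRMT1 had a log2 fold change of 0.52 ± 0.22 and an adjusted p of 0.311 (DESeq2, authors' deposited table), with a mean normalized count of 30382. CARM1 was at 0.11 ± 0.24, PRMT2 at -0.03 ± 0.21, PRMT3 at -0.26 ± 0.34 and PRMT6 at -0.10 ± 0.21, each with an adjusted p of at least 0.985. None of 39 RGG-motif and hnRNP protein genes was called, beside 1.66% of all genes, which at this list size is not read as a result. Of the 39, 3 had an unadjusted p under 0.05, and the lowest value was that of HNRNPA3, at -0.93 (adjusted p of 0.251). Of 35 genes of splicing 1 was called (2.86%, beside 0.75% of all genes called lower), the SR protein kinase CLK3, at -0.88 ± 0.22. In this list 27 of 35 were below 0, with a median of only -0.10. An unadjusted p under 0.05 was found for 3 of the 35, beside 9.62% of all genes. The proliferation marker MKI67 was at -0.10 ± 0.36 and the cell cycle inhibitor CDKN1A at -0.16 ± 0.26.

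Other lists held single calls, beside 0.912% of all genes called higher and 0.75% called lower, and 1 call in a list of 14 to 46 genes is too few to read as a change of the list. CRYAB, a small heat shock protein, fell by 1.34 ± 0.35 (adjusted p of 0.0116), 1 of 21 heat shock chaperones, of which 18 were below 0 with a median of -0.26 (DESeq2, authors' deposited table). FDXR, a mitochondrial reductase induced by p53, rose by 0.81 ± 0.22, 1 of 21 p53 target genes, whose median was -0.06. CPT1B, which admits fatty acids into mitochondria, rose by 1.39 ± 0.41, 1 of 26 genes of fatty acid oxidation, and PPARA was at 0.95 ± 0.29 with an adjusted p of 0.0585. CPT1B shares reads with the readthrough gene CHKB-CPT1B, which rose by 1.90 ± 0.49. ATP6V1E2, a subunit of the proton pump, fell by 1.14 ± 0.26, 1 of 27 lysosomal genes. PSMG4, a chaperone of proteasome assembly, fell by 0.86 ± 0.23, 1 of 46 proteasome genes. COL6A2 was 1 of 14 genes of collagens and core matrix.

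**Figure D3:**
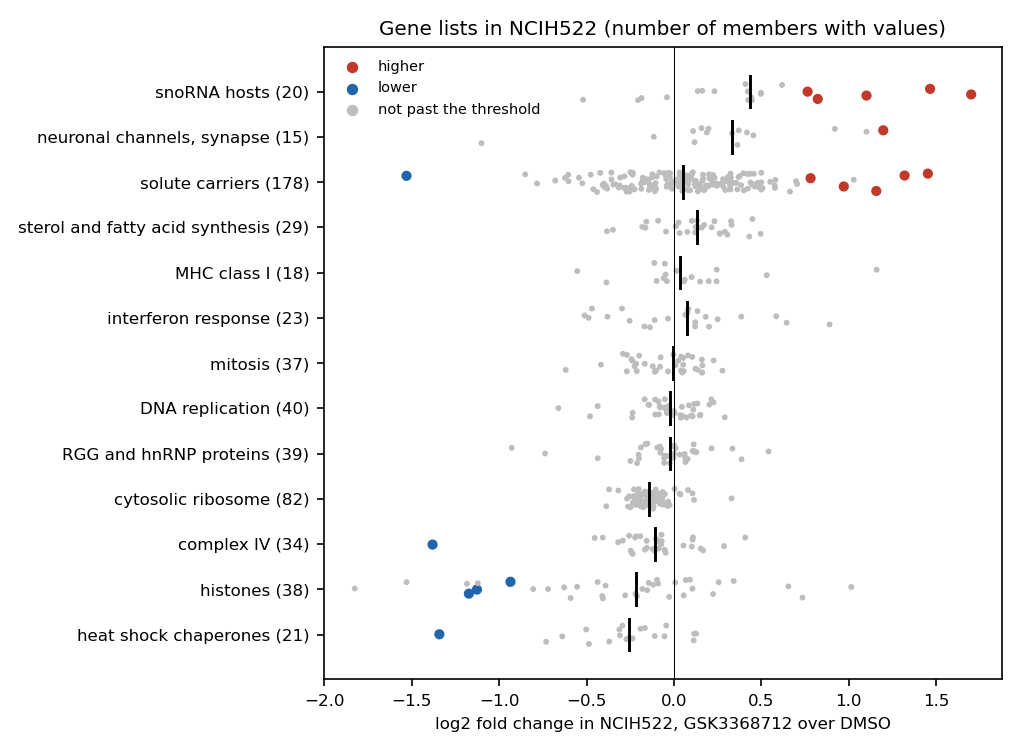
Log2 fold change of GSK712 over DMSO in NCIH522 (x axis) for the members of 13 gene lists (rows, with the number of members that have values). Large red and blue points were called higher and lower, small grey points did not pass, and the black tick is the list's median. The snoRNA hosts have 5 red points and a median of 0.43. Mitosis, DNA replication and the interferon response have no coloured point, which is not read as a result, since 1.66% of all genes were called.

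Among called genes, 1 overlapping pair in which both were called went opposite ways and 3 pairs went the same way. SCLT1, at -1.29, and JADE1, at 0.73 ± 0.21 (adjusted p of 0.0393, DESeq2, authors' deposited table), overlap on opposite strands of chromosome 4, and JADE1, a subunit of a histone acetyltransferase complex chosen for this overlap, had implied means of 7595 with GSK712 and 4595 with DMSO. SGSH and SLC26A11, on opposite strands of chromosome 17, both rose, by 0.80 and 0.78. NDE1 and AC026401.3, on the same strand, rose by 0.79 and 0.97, and CPT1B and CHKB-CPT1B are given above. OPN3, at -2.14, overlaps CHML on the same strand, which was at 0.45 ± 0.32 (adjusted p of 0.814). Of the called genes 79 overlapped another gene on the same strand (37.1%), beside 34.9% of all listed genes.

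NCIH522 had the fewest calls of the 10 lines. Beside 1.66% of genes in NCIH522, 4.48% were called in PC9, 7.91% in NCIH1975 and 48.1% in NCIH1563, the other adenocarcinoma lines. In the squamous lines 23.8% were called in NCIH520, 31.3% in NCIH226, 31.4% in SKMES1, 35.7% in SW900, 39.4% in LK2 and 46.5% in EBC1. The median SE was 0.26 in NCIH522, against 0.30 in PC9, 0.34 in NCIH1975, 0.22 in NCIH1563 and between 0.11 and 0.13 in the squamous lines. The SD of fold changes beyond their SEs, over 9339 genes with values in all 10 lines, was 0.08 in NCIH522 and between 0.24 (NCIH520) and 0.66 (NCIH1563) in the other lines. This value has no test. Over all genes listed for each line it was 0.20 in NCIH522, near the 0.24 of NCIH520, and up to 0.84 in NCIH1563.

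Most genes called in nearly every other line had the same sign in NCIH522. Of 88 genes called the same way in at least 8 of the other 9 lines, 83 had values in NCIH522, 79 had the same sign (95.2%) and 22 were called. Their size was mostly smaller: 63 of 83 had a smaller log2 fold change in NCIH522 than the median of the other lines. Among the 34 listed genes that rose elsewhere the median was 0.65 in NCIH522 against 1.03 over the other lines, and among the 49 that fell it was -0.65 in NCIH522 against -0.91. These counts rest on no test, and genes are not independent of each other. The genes were chosen for their calls in the other lines, which favours large values there. The smaller sizes in NCIH522 are therefore not read as a weaker response of this line.

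Examples of both kinds can be named from the authors' deposited table. MRM1 was at -1.43 in NCIH522, and it was called lower in all 9 other lines, with values between -2.06 and -1.08. OPN3 was at -2.14 in NCIH522 and between -3.05 and -1.06 in the other lines, also called in all 9. DGCR11 was at 2.74 in NCIH522 and between 2.34 and 5.41 in the other lines. ABCA3, a lipid transporter of lung epithelium, was called lower in 8 other lines with a median of -1.27, and it stood at -0.16 ± 0.24 in NCIH522. DDB2, a damage sensor, had a median of -1.13 over the other lines and -0.40 ± 0.20 in NCIH522. NEAT1, the paraspeckle RNA, had a median of 1.46 elsewhere and 0.45 ± 0.53 in NCIH522. ADCY3, an adenylyl cyclase, had a median of -1.21 elsewhere and -0.55 ± 0.20 in NCIH522. A list of 8 genes that earlier results had shown to fall in every line was lower in 8 of 8 members here, and since it was chosen on these data the count is no independent evidence.

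**Figure D4:**
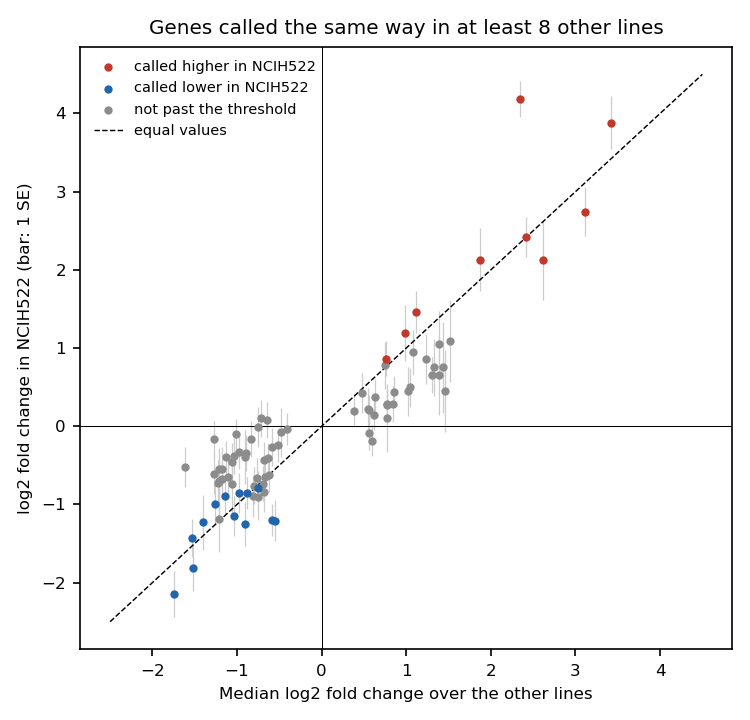
Log2 fold change in NCIH522 with 1 SE (y axis) against the median log2 fold change over the other lines (x axis) for 83 genes called the same way in at least 8 other lines. Red and blue points were called in NCIH522, grey points did not pass, and the dashed line marks equal values. Of the points, 79 lie on the same side of 0 on both axes, and AL645608.7, at 4.19 in NCIH522 and 2.35 elsewhere, stands above the line.

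Of the 215 genes called in NCIH522, 193 were called the same way in at least 1 other line (89.8%), 105 in at least 4 (48.8%) and 22 in at least 8 (10.2%). Over all 12923 listed genes with a fold change other than 0, the shares called elsewhere in the direction of their sign in NCIH522 were 61.6%, 15.3% and 0.611%, and the comparison was not tested. In no other line, in either direction, were 15 called, and 6 of these had values in NCIH522 alone. Among the 15 were MFAP5 (-1.07 ± 0.21), SLC17A7 (0.97 ± 0.25), TRPC1 (a cation channel, -1.24 ± 0.33), PANO1 (-1.41 ± 0.37), NRTN and KIF5A (authors' deposited table). A call in NCIH522 and none elsewhere is no test of a difference.

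The difference itself was tested against each other line. Against PC9, 19 of 10922 genes differed (0.174%; two-sided normal test on the difference of log2 fold changes, Benjamini-Hochberg adjusted p of at most 0.05), 8 higher and 11 lower in NCIH522. Against NCIH1975, 140 of 11208 differed (1.25%), 76 higher and 64 lower in NCIH522. Against NCIH1563, the line with the most calls, 1738 of 11441 differed (15.2%), 811 higher and 927 lower in NCIH522. Of these 1738, 19 passed when the test statistics were divided by their robust SD of 1.98. In the same way 103 passed against NCIH1975 and 17 against PC9. Among the 75% of genes with the highest counts in both lines, 1511 passed against NCIH1563, 101 against NCIH1975 and 4 against PC9. Against the squamous lines 0.294% differed for NCIH520, 1.28% for SW900, 1.51% for SKMES1, 2.02% for NCIH226, 2.23% for LK2 and 6.75% for EBC1. In limma with 1 fold change per line, in which the other 9 lines alone give the spread, no gene of 9339 separated NCIH522 from them at an adjusted p of 0.05, and 177 had an unadjusted p under 0.05.

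JUN and CRYAB fell in NCIH522 and were called higher in NCIH1563. JUN was at -1.10 in NCIH522 and at 2.28 in NCIH1563, a difference of -3.38 ± 0.31 (adjusted p of 2.43e-24, normal test), and at 0.42 in PC9, a difference of -1.52 ± 0.37 (adjusted p of 0.0316). Against NCIH1975 the difference in JUN was -1.54 ± 0.43 (adjusted p of 0.0342). JUN was called higher in 4 other lines and lower in 1. CRYAB was at -1.34 in NCIH522 and at 4.26 in NCIH1563, a difference of -5.60 ± 0.41 (adjusted p of 4.84e-38). CALD1, an actin-binding protein, was at -1.29 in NCIH522 and at 0.52 in NCIH1975, a difference of -1.81 ± 0.45 (adjusted p of 0.0101), and it was called higher in 3 other lines and lower in none. HTRA1, a secreted protease, was at -1.43 in NCIH522 and at 0.82 in NCIH1975, a difference of -2.25 ± 0.37 (adjusted p of 1.16e-06). KLHDC10 was at 1.22 in NCIH522, and 3 other lines called it lower. CALD1, HTRA1 and KLHDC10 were chosen after their values were seen.

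Other differences lay in junction, secretory and chromatin genes. CLDN9, a tight junction protein, was at 1.41 in NCIH522, against -0.76 in PC9 and -2.17 in NCIH1975, and both differences passed (adjusted p of 0.0180 and 7.98e-08, normal test). TNXB and TOR4A were higher in NCIH522 than in PC9, at 2.08 against 0.27 (adjusted p of 0.00998) and at 1.69 against -0.31 (adjusted p of 0.00605). CERS1, at 1.00 in NCIH522, was at 5.52 in NCIH1975, a difference of -4.52 ± 0.64 (adjusted p of 1.27e-08). The class IIa deacetylase HDAC4 was at -0.82 in NCIH522 and at -4.87 in NCIH1563, and HDAC5 was at 0.45 in NCIH522 and at 3.57 in NCIH1563, and the differences of 4.05 ± 0.40 and -3.12 ± 0.32 both passed (adjusted p of 3.93e-21 and 1.26e-19). VGF and SCG5, a pair of secretory granule proteins, were at -0.58 and -0.08 in NCIH522, against -3.31 and 2.92 in NCIH1975 (adjusted p of 4.12e-08 and 7.98e-08). AL645608.7 rose more in NCIH522 than in PC9 or NCIH1975, at 4.19 against 1.60 and 1.90 (adjusted p of 9.42e-08 and 2.80e-05).

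**Figure D5:**
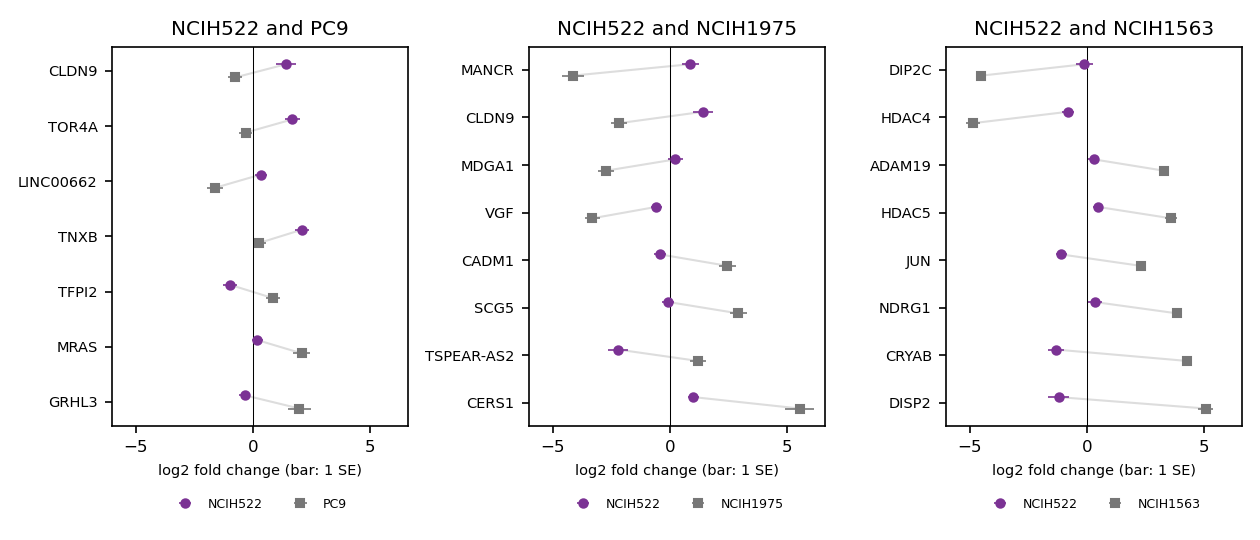
Log2 fold change of GSK712 over DMSO with 1 SE (x axis) in NCIH522 (purple circles) and in PC9, NCIH1975 or NCIH1563 (grey squares), for up to 8 genes with a symbol and the smallest adjusted p of each difference test. Over the panels together, the circle lies nearer to 0 than the square in most rows, as for CERS1 at 1.00 and 5.52. In the PC9 panel the circle lies farther from 0 for CLDN9, TNXB, TOR4A and TFPI2. In rows such as CRYAB, JUN and TSPEAR-AS2 the circle lies below 0 and the square above it.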

How the data were processed

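RNA of NCIH522 and 9 further lines was sequenced from stranded mRNA libraries, per the labels' protocols. The submitters' processing notes name FastQC, Salmon 0.12.0, DESeq2 and GRCh38. Per the labels, genes under an FPKM minimum of 1 were left out of each comparison. The deposited table holds the authors' log2 fold changes, adjusted p-values, SEs, mean normalized counts (a signal that is never negative) and a test statistic (a score) per gene and line, with no values per library. The fold change over its SE and the deposited statistic differed by at most 0.017.

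From these values, genes were counted at the authors' adjusted p of at most 0.05, differences between lines were tested by a two-sided normal test with Benjamini-Hochberg adjustment over all shared genes, and NCIH522 was set against the other 9 lines with limma 3.58.1 (R 4.3.3). Arm means were computed from the mean count and fold change, assuming equal arms. Of these steps, the difference test and the limma contrast alone were tried on simulated data. Coordinates are from GENCODE 29, to which 12924 of 12937 identifiers matched.

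Members and gene lists were chosen with earlier results of these data known. Genes were named by rule: the 15 largest called changes of each direction at or above the median count, the 5 largest below it, the 5 smallest adjusted p-values, called members of 61 lists with up to 4 further members, 9 fixed genes, up to 8 genes per difference test and up to 8 called in no other line, and genes of large median among those called in at least 8 other lines. Some genes the rule names are not reported here. Genes named outside it are marked, or are uncalled snoRNA hosts and genes that overlap a named gene, chosen after their values were seen.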

Additional observations from a re-analysis of the deposited data

Results flagged for a closer look

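Each of the following genes had a log2 fold change in NCIH522 that differed from that of another adenocarcinoma line by the normal test, with Benjamini-Hochberg adjustment over all shared genes, and each value is the difference NCIH522 minus the other line. No explanation was tested.

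Against PC9, MRAS differed by -1.88, TFPI2 by -1.81 and GRHL3 by -2.33. TNXB differed from PC9 by 1.81, TOR4A by 2.0, LINC00662 by 1.95 and CLDN9 by 2.17.

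Against NCIH1975, MANCR differed by 5.01, CLDN9 by 3.58, MDGA1 by 2.97 and VGF by 2.73. CERS1 differed from NCIH1975 by -4.52, TSPEAR-AS2 by -3.42, SCG5 by -3.0 and CADM1 by -2.86.

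Against NCIH1563, DISP2 differed by -6.27, CRYAB by -5.60, NDRG1 by -3.53 and JUN by -3.38. HDAC5 differed from NCIH1563 by -3.12 and ADAM19 by -3.01, while DIP2C differed by 4.39 and HDAC4 by 4.05.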

How the results depend on the processing

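No paired analysis was possible because the table holds no values per library, and for the same reason no library could be left out. The 118 higher and 97 lower calls did not move when the adjustment was recomputed or the p taken from fold change over SE. Subtracting the median gave 125 and 94. With the 75% of genes of highest count 71 and 55 were called, a filter that removes genes tested. Protein-coding genes alone gave 73 and 67, genes with no same-strand overlap, an alternative chosen after seeing the data, 70 and 64, a fold limit 71 and 66, and a threshold of 0.1 gave 174 and 171.

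The count against PC9 (19) was 4 in the top 75% of genes and 5 among genes with values in all 10 lines. The count against NCIH1975 (140) was 64 among genes in all 10 lines. Dividing the statistics by their robust SD, which is 1.98 for NCIH1563, left 19 of 1738 there, 103 for NCIH1975 and 17 for PC9. The cause was not tested. The limma count was 0 under each alternative run, leave-one-out of lines included (0 to 0), with 35 to 338 genes at an unadjusted p under 0.05. With 1 value for NCIH522 this contrast has little power, so the constant 0 says nothing about stability.

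The share with the same sign was 100.0% for 23 genes called in all 9 other lines and 84.6% for 745 called in at least 6. The SD beyond the SEs in NCIH522 was 0.20 over all listed genes and 0.00 both in the top 75% and by the median absolute deviation, the lowest of the 10 lines each time. The 0.00 is a floor, set where the spread of fold changes did not exceed their SEs, and is not a measured size.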

Other observations

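Some called genes lay in stretches beside centromeres and on short arms, chosen after their values were seen. The share of listed genes called in these stretches was not counted, so no clustering is claimed. Over whole chromosomes, 3.27% of listed genes were called on chromosome 22, 5.16% on chromosome 21 and 2.62% on chromosome 9. Over all listed genes the share was 1.66%. On chromosome 22, AP000525.1 (2.13), TPTEP1 (0.76) and CECR7 (1.10) were called higher. On chromosome 21, CU633904.1 (-4.30) and CU633967.1 (-1.13) were called lower. On chromosome 9, AL772307.1 (-1.72), FAM27C (-0.91), AL590399.1 (-1.54) and AL512625.1 (-1.57) were called lower. These are log2 fold changes of GSK712 over DMSO from the authors' deposited table. Many genes of such regions have near-identical copies, so reads may be split between copies and the values are uncertain.

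Adhesion and matrix genes outside the lists gave calls in both directions, also chosen after their values were seen. ITGB4 (0.81), COL18A1 (0.76), AHNAK2 (0.78) and RECK (1.30) were higher, and CXADR (-1.18), PCDHGA7 (-1.60), FBLN7 (-2.83) and MFAP5 (-1.07) were lower, on the same scale. ADARB1, an RNA-editing deaminase, was at 0.79 and MAPK11, a p38 kinase, at 0.83.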
